A study of Mus musculus with 2 samples.

Results

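Cxcl12, Cxcr4 and Ackr3 were described across the cell types of the postischemic kidney. The members were taken by gene symbol and make up 3 of the 32285 genes counted. Single-cell RNA was measured on day 14 after unilateral ischemia-reperfusion injury (IRI, 25 minutes of renal artery clamping) in 1 Cre- mouse and 1 littermate, named PHDTiEC, that carried Cdh5-CreERT2 together with floxed alleles of all 3 prolyl hydroxylases, Phd1f/f, Phd2f/f and Phd3f/f. In this mouse, Cre recombinase is driven in endothelium by the Cdh5 promoter and switched on by tamoxifen, which removes the floxed parts of the genes (Egln2, Egln1 and Egln3). The label of the control gives only the absence of Cre. Both mice were males of 8 to 10 weeks and received tamoxifen after the injury, in 4 intraperitoneal doses of 3 mg per mouse every other day. With 1 library of 1 mouse per genotype no difference between genotypes could be tested. All intervals below are 95% intervals for counting error only and leave out the variation between mice, dissociations and libraries. Those of levels, ratios and shares of UMIs also treat each UMI as independent. They leave out the variation between cells and are too narrow where few cells hold most UMIs.

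The Cre- library held 136004367 unique molecular identifiers (UMIs, each a captured mRNA molecule) and the library labelled PHDTiEC held 146758812. Barcodes with 500 to 100000 UMIs, at least 200 genes and at most 50% mitochondrial UMIs were kept, 8548 and 9309 in all, with medians of 7500 and 7898 UMIs; 28 kept barcode sequences occurred in both libraries. Clustering without the 3 genes gave 30 clusters. Of these, 18 were named "-like" after marker genes and 12 stayed numbered, holding 2644 and 2766 cells. RNA of the floxed genes was not lower in the endothelial-like cells of the library labelled PHDTiEC: Egln1 stood at 68.1 CPM (UMIs of the gene per 1000000 UMIs of the class) in Cre- and 192 CPM there, Egln2 at 36.7 and 39.6 CPM, and Egln3 at 24.7 and 153 CPM. Whether the counted 3′ ends lie inside the deleted parts is not given in the sources used here, so these values do not check the labels.

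CXCL12 is a chemokine that stromal and endothelial cells secrete and hold on their surfaces. It guides leukocytes and progenitors through CXCR4, a receptor coupled to inhibitory G proteins that also helps to keep neutrophils in the bone marrow. ACKR3 is an atypical receptor that engages arrestin, takes CXCL12 up and degrades it, and can also bind adrenomedullin, the product of Adm. Hypoxia-inducible factor (HIF), which the prolyl hydroxylases mark for degradation, is known to raise transcription of Cxcl12 and Cxcr4 in several tissues.

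In the GENCODE vM21 annotation of GRCm38, the assembly on which mm10 is based, Cxcl12 (ENSMUSG00000061353) lies on the plus strand at chr6:117168535-117181367 with 4 annotated transcripts, 3 of them protein coding. The counts are per gene and do not separate them. Cxcr4 (ENSMUSG00000045382) lies on the minus strand at chr1:128588199-128592293. Ackr3 (ENSMUSG00000044337) lies on the plus strand at chr1:90203980-90216751. The 250 bases before each RefSeq transcription start (GRCm38.p6) are shown, because the core letters of the HIF binding element, ACGTG or GCGTG, can be looked for there. They were searched on both strands and are in capitals; at least 1 of them occurs in 38.6% of 32851 such windows of all genes. The Cxcl12 window, chr6:117168285-117168534 on the plus strand, held neither. The Cxcr4 window, chr1:128592300-128592549 on the minus strand, held GCGTG at position -39 from the start. The Ackr3 window, chr1:90203730-90203979 on the plus strand, held GCGTG at position -120. A match is a match of letters and not a binding site, and the lack of one says nothing about sites elsewhere.
Cxcl12: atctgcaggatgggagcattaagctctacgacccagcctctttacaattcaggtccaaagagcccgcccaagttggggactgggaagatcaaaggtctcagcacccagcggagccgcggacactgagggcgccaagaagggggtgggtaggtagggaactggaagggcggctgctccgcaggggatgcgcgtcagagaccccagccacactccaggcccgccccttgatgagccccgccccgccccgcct
Cxcr4: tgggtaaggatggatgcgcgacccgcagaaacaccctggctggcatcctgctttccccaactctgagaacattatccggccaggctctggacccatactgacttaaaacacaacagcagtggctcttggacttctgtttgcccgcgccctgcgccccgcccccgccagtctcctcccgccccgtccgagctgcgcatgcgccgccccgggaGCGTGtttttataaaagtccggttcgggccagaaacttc
Ackr3: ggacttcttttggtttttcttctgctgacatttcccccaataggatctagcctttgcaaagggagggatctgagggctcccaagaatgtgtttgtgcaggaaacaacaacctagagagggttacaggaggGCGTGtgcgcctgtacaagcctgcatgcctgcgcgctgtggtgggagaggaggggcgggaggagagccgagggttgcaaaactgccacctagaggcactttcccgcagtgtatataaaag

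Cxcl12 was densest in endothelium and stroma, Cxcr4 was held mainly by leukocytes and Ackr3 mainly by epithelium. Endothelial-like cells were 4.71% of the kept barcodes in Cre- and 5.79% in the library labelled PHDTiEC. They held 36.6% [33.5, 39.8] of the 939 Cxcl12 UMIs in Cre- and 55.9% [53.8, 57.9] of the 2204 Cxcl12 UMIs in the other library. Fibroblast-like and pericyte-like cells together held 18.6% and 15.8%. Epithelial cells, 32.9% and 32.2% of the barcodes, held 39.0% [35.8, 42.2] and 25.8% [23.96, 27.7] of them, at 4.73 and 6.74 CPM against 70.1 and 212 CPM in the endothelium, so that in Cre- their share and the endothelial one overlapped within counting error. Leukocytes held 75.6% of 4554 Cxcr4 UMIs in Cre- and 78.3% of 5772 in the library labelled PHDTiEC. Epithelial cells held 92.3% of 1835 Ackr3 UMIs and 92.0% of 2465. Such shares depend on how many cells of each type survived dissociation and on how much RNA each cell holds.

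**Figure D1:**
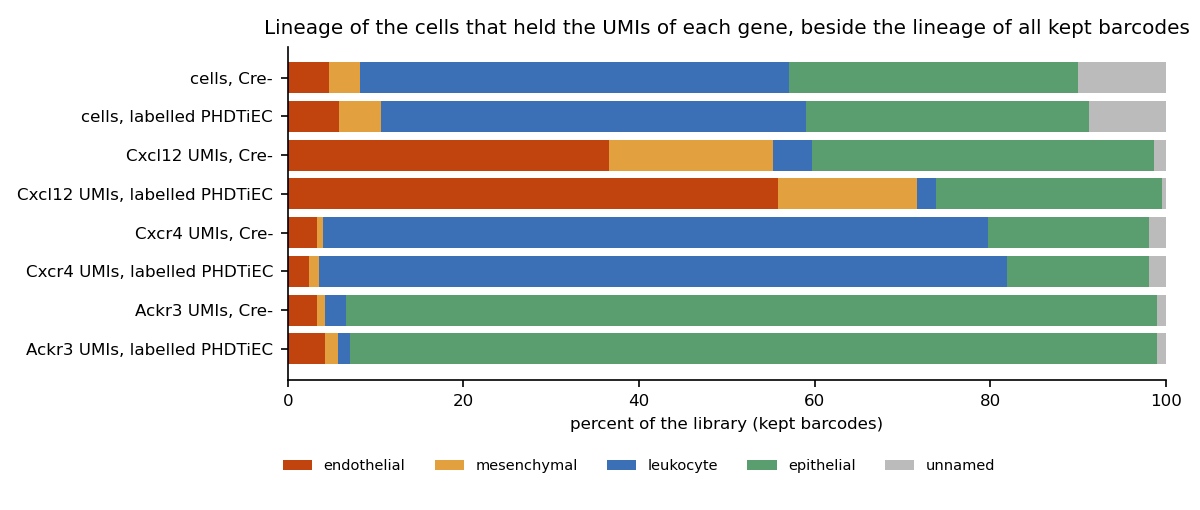
Horizontal bars give, for each library (1 mouse each), the percent of kept barcodes in each lineage and the percent of the UMIs of Cxcl12, Cxcr4 and Ackr3 held by each lineage. Endothelial cells held 36.6% and 55.9% of the Cxcl12 UMIs, leukocytes 75.6% and 78.3% of the Cxcr4 UMIs and epithelial cells 92.3% and 92.0% of the Ackr3 UMIs.

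Cxcl12 was highest in the mREC-like class, named after medullary renal endothelial cells by 9 markers that include Sox17, Gja4 and Aqp1. The name rests on markers alone, and the place of these cells in the kidney was not measured. Its level was 120.2 CPM [105, 137] over 187 cells in Cre- and 318 CPM [296, 340.04] over 231 cells in the library labelled PHDTiEC. Fibroblast-like cells came next in Cre-, at 83.0 CPM [70.7, 96.8], followed by cluster 23 at 61.2 CPM [51.0, 72.9] and urothelial-like cells at 41.9 CPM [25.6, 64.6]. The mREC-like interval stood clear of that of fibroblast-like cells, while the intervals of fibroblast-like cells and cluster 23 overlapped, as did those of cluster 23 and urothelial-like cells. In the library labelled PHDTiEC, cluster 23 stood second at 199.7 CPM [181, 220.4], above fibroblast-like cells at 78.3 CPM [70.1, 87.3] and urothelial-like cells at 55.0 CPM [39.8, 74.1], and its interval overlapped neither that of mREC-like nor that of fibroblast-like cells. Cluster 23 held endothelial and mural genes together, with a pericyte marker sum of 7202 CPM in Cre- and 9497 CPM in the other library beside endothelial sums of 5206 and 5379 CPM. It may not be a single cell type, and its barcodes were deep, with medians of 22833 and 19776 UMIs.

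Pericyte-like cells, TAL-like cells (thick ascending limb) and glomerular epithelial-like cells held Cxcl12 at a lower level, between 13.3 and 18.6 CPM over both libraries, with overlapping intervals. The cREC-like class was named for the cortical renal endothelium, also by markers alone. It held 4 Cxcl12 UMIs among 128 cells of Cre- and 14 among 211 cells of the library labelled PHDTiEC, or 3.75 CPM [1.02, 9.61] and 11.3 CPM [6.17, 18.9]. A single cell held 42.9% of the latter. T-like cells, which are not known to make the chemokine, held 1 Cxcl12 UMI in each library, at 0.419 and 0.351 CPM. Free RNA, summed over barcodes under 100 UMIs, held Cxcl12 at 8.91 and 9.86 CPM. Leaked RNA estimated from tubular and neutrophil genes made up 13.9% and 7.33% of the mREC-like UMIs, which corresponds to 1.23 and 0.722 CPM of Cxcl12.

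Within the mREC-like class, Cxcl12 was uneven between cells. A Cxcl12 UMI was present in 37.4% of the cells of Cre- and 55.4% of those of the library labelled PHDTiEC, at median depths of 6995 and 8905 UMIs. After each cell was thinned to 2000 UMIs, which left out 21 and 11 shallower cells, the shares were 16.9% [11.5, 23.5] and 28.6% [22.8, 35.1]. In T-like cells the shares were 0.169% and 0.141% at median depths of 3162 and 3290 UMIs, and 0.191% and 0.156% after thinning. Thinned mREC-like cells with at least 2 Cxcl12 UMIs were 4 of 166 in Cre- and 28 of 220 in the library labelled PHDTiEC, and the richest thinned cell held 4 and 22. Fibroblast-like cells with at least 2 were 7 of 152 and 20 of 290.

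**Figure D2:**
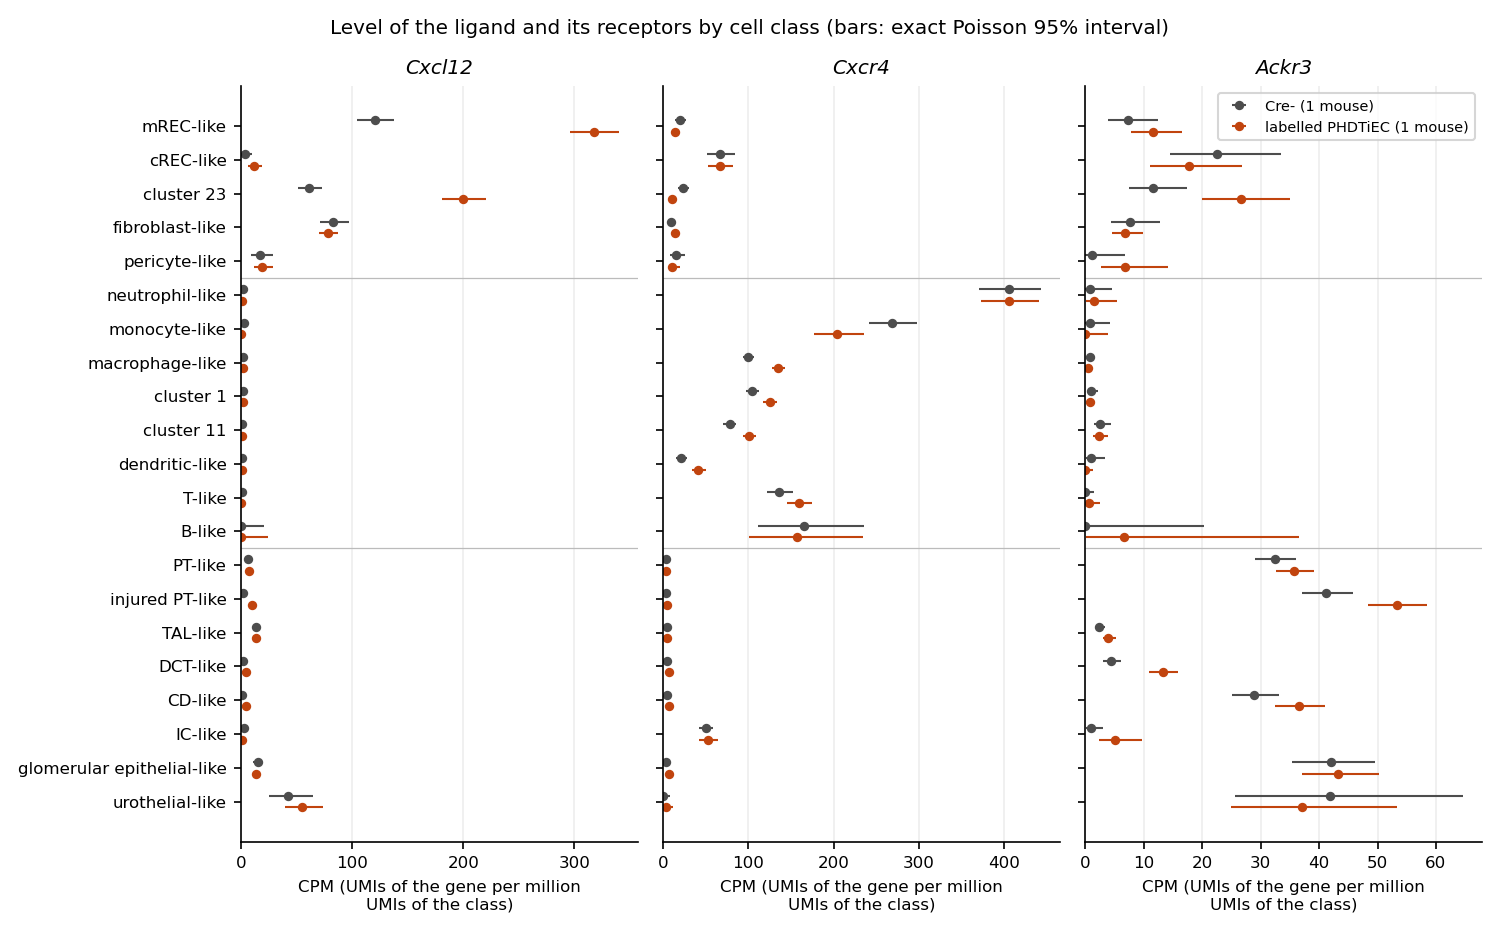
Each point is the level (CPM, linear axis, different range in each panel) of a gene in a cell class of the Cre- library (grey, 1 mouse) or the library labelled PHDTiEC (orange, 1 mouse), with the exact Poisson 95% interval. Cxcl12 was highest in mREC-like cells, Cxcr4 in neutrophil-like cells at 406 CPM in both libraries, and Ackr3 in epithelial classes at up to 53.3 CPM.

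Cxcr4 marked myeloid and lymphoid cells. Neutrophil-like cells had the highest level, 406 CPM [371, 443] in Cre- and 406 CPM [373, 441] in the library labelled PHDTiEC. Monocyte-like cells came second among the named classes at 268 CPM [241, 297] and 204 CPM [177, 235], and neither library's interval overlapped that of neutrophil-like cells. B-like cells (165 and 157 CPM) and T-like cells (136 and 160 CPM) followed with overlapping intervals. Macrophage-like cells, named by C1qa, Mrc1 and 6 further markers, stood at 99.8 CPM [93.2, 107] and 135 CPM [128, 143]. Clusters 1 and 11, which carried macrophage markers but were led by Retnla and Ear2 and by Gpnmb and Arg1, stood at 105 and 125 CPM and at 77.9 and 101 CPM. Dendritic-like cells were the lowest named leukocytes, at 21.03 CPM [15.3, 28.2] and 41.4 CPM [33.9, 49.96].

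The share of cells with a Cxcr4 UMI followed depth as well as level. It was 42.4% and 41.0% in neutrophil-like cells at median depths of 1768 and 1770 UMIs, and 35.0% and 45.0% in macrophage-like cells at 5942 and 6347 UMIs. At 2000 UMIs per cell the shares were 37.0% and 34.3% in the 200 and 213 neutrophil-like cells deep enough to be thinned, and 16.1% and 21.3% in the 1371 and 1449 macrophage-like cells. PT-like cells (proximal tubule), where Cxcr4 stood at 2.98 and 3.45 CPM, had shares of 4.64% and 4.99% at median depths of 19442 and 17519 UMIs, and 1.17% and 0.501% after thinning.

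Outside the leukocytes, Cxcr4 was seen in cREC-like cells at 66.6 and 66.1 CPM and in IC-like cells (intercalated cells of the collecting duct) at 50.05 and 52.7 CPM. The most Cxcr4 UMIs outside the leukocytes, 422 and 478, lay in cluster 7, the deepest cells, with intercalated and collecting duct markers. Its level was 24.2 and 23.8 CPM. The mREC-like class held less, 19.7 and 14.3 CPM. Among endothelial-like cells as a whole the level was 31.4 and 23.9 CPM, of which 8.06 and 5.52 CPM correspond to the estimated leak of free RNA, which itself held Cxcr4 at 40.0 and 47.3 CPM. The 8 macrophage markers summed to 758 CPM in the cREC-like cells of Cre- and 1436 CPM in the other library, with none at 0, against 507 and 359.7 CPM in mREC-like cells. Estimated leak of free RNA made up 55.6% of the cREC-like UMIs in Cre- and 16.5% in the other library. The part of these markers and of leak in the cREC-like Cxcr4 level was not tested.

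Ackr3 lay mainly in epithelium. Injured PT-like cells (proximal tubule with Havcr1, Krt20, Vcam1 and Cdh6) held 41.2 CPM [37.1, 45.7] in Cre- and 53.3 CPM [48.4, 58.5] in the library labelled PHDTiEC. Glomerular epithelial-like cells stood at 41.99 and 43.3 CPM and urothelial-like cells at 41.9 and 37.1 CPM, with intervals that overlapped those of injured PT-like cells. PT-like cells at 32.4 and 35.7 CPM and CD-like cells (collecting duct) at 28.9 and 36.5 CPM came next among the named classes. Cluster 14, an epithelial cluster led by Slc14a2 and Fst, lay above both at 39.1 CPM [33.8, 45.0] and 40.2 CPM [34.5, 46.4]. Cluster 7 stood lower at 19.2 and 23.3 CPM, but its deep cells held 18.2% and 18.9% of all Ackr3 UMIs. TAL-like cells were low at 2.40 and 3.97 CPM. Leukocytes together held 45 and 33 Ackr3 UMIs, 1.45 and 0.935 CPM, beside 111 and 128 CPM of Cxcr4.

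Endothelial-like cells held Ackr3 at 12.4 and 18.1 CPM, below its level in free RNA (15.5 and 20.1 CPM), of which leak was estimated to give 3.13 and 2.34 CPM. Among them, cREC-like cells stood at 22.5 CPM [14.4, 33.5] and 17.7 CPM [11.1, 26.9], above TAL-like and DCT-like cells. Leak was estimated at 55.6% and 16.5% of the cREC-like UMIs. Cluster 23 stood at 11.7 and 26.7 CPM and mREC-like cells at 7.30 and 11.6 CPM. After thinning, 7.73% and 8.85% of PT-like cells had an Ackr3 UMI, beside 39.2% and 39.1% before. T-like cells had 0 such cells of 591 in Cre- and 2 of 708 in the library labelled PHDTiEC.

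Between genotypes, the clearest difference of the 3 genes was that of Cxcl12 in the endothelium. Endothelial-like cells held 344 Cxcl12 UMIs in Cre- and 1231 in the library labelled PHDTiEC, 70.1 CPM [62.9, 77.9] against 212 CPM [200.3, 224]. That is a log2 ratio of 1.60 [1.42, 1.77], where a positive value is higher in the library labelled PHDTiEC. Without cluster 23 it was 1.51 [1.29, 1.73], on 218 and 835 UMIs. With cluster 23 counted, the ratio exceeded those of 99.5% of the 10792 genes with at least 50 UMIs in the class, whose median was -0.01. Of the 3 members, 1 was at least 1.5-fold higher there and none at least 1.5-fold lower; of all genes in that class 3.53% were higher by that fold and 4.36% lower. The study picked out Cxcl12 in mRECs on these same libraries, so its direction there is not independent evidence. Apart from these libraries, the study reported increased CXCL12 protein in the kidney endothelium of PHDTiEC mice by immunofluorescence, at an earlier day after injury.

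By class, the log2 ratio of Cxcl12 was 1.40 [1.18, 1.63] in mREC-like cells, from 214 and 821 UMIs, and 1.71 [1.41, 2.01] in cluster 23, from 126 and 396 UMIs. Of 8119 genes in the mREC-like class 5.88% were at least 1.5-fold higher and 4.03% lower, and of 8176 in cluster 23 5.14% and 5.12%. Removing barcodes with 2 or more of the first 3 markers of another lineage left 1.37 for the mREC-like class. For cREC-like cells the ratio was 1.59 [-0.08, 3.65] on 4 and 14 UMIs, so no difference could be resolved at this depth. Leak of free RNA was estimated at 4.96 and 1.63 CPM there, above the level measured in Cre-. The value moved with how the class was drawn: cells taken by marker UMIs alone held 7 and 113 Cxcl12 UMIs (6.06 and 57.1 CPM), a ratio of 3.24, and the mean over cells gave 2.62. In fibroblast-like cells 161 and 330 UMIs in 159 and 301 cells gave -0.08 [-0.36, 0.20], so the 2 levels did not differ beyond counting error. Pericyte-like cells had 14 and 19 UMIs and a ratio of 0.13 [-0.94, 1.24]. The difference between the endothelial-like and fibroblast-like ratios was not tested; their intervals did not overlap.

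**Figure D3:**
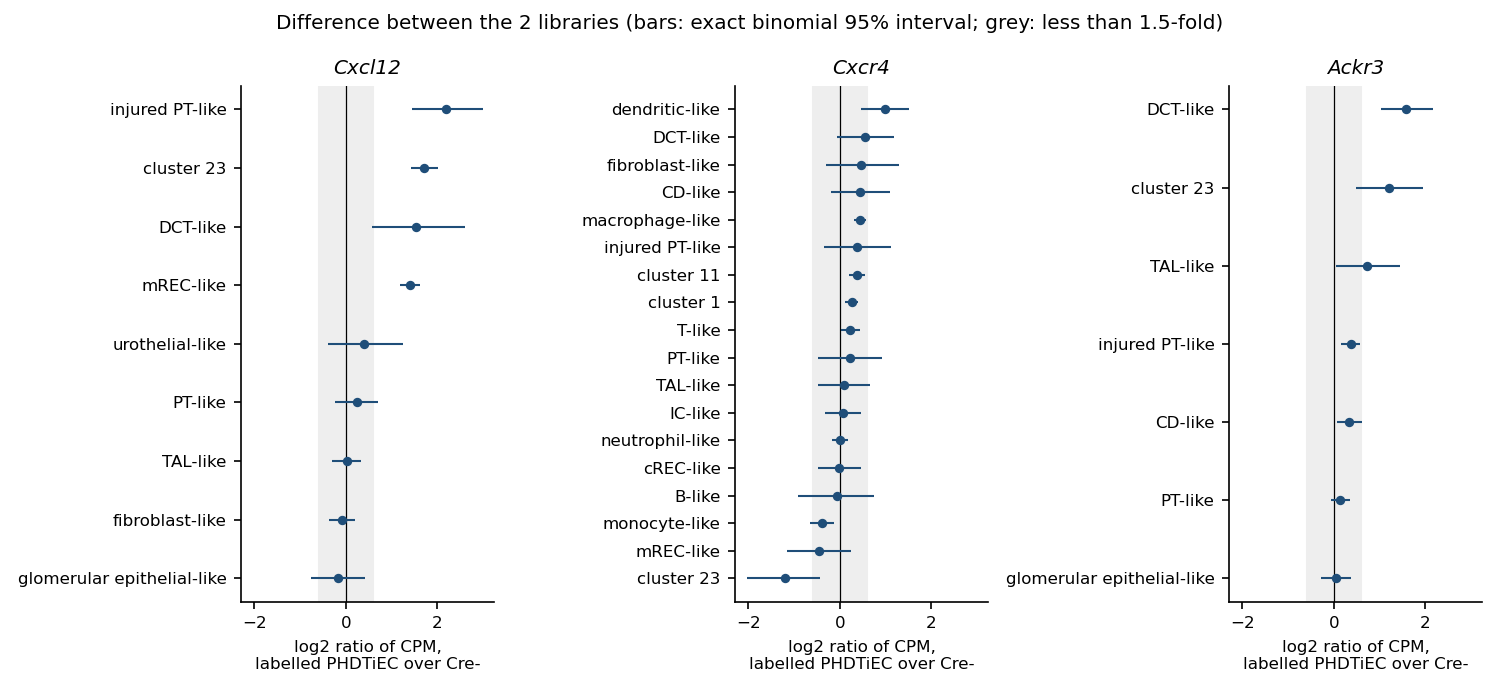
Each point is the log2 ratio of CPM (library labelled PHDTiEC over Cre-, 1 mouse each) of a gene in a cell class with at least 50 UMIs of the gene over both libraries, with the exact binomial 95% interval; the grey band covers less than 1.5-fold. Cxcl12 stood at 1.40 in mREC-like cells, 1.71 in cluster 23 and -0.08 in fibroblast-like cells, while Cxcr4 in neutrophil-like cells stood at 0.

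Tubular classes held Cxcl12 at low levels, though TAL-like cells held 166 and 185 UMIs and PT-like cells 65 and 98. Injured PT-like cells had 19 in Cre- and 81 in the library labelled PHDTiEC (2.17 and 9.85 CPM), a log2 ratio of 2.18 [1.45, 2.99], beside 5.75% of genes at least 1.5-fold higher. Neither level exceeded that of free RNA, 8.91 and 9.86 CPM. The leak into these cells was not estimated, so the part of free RNA in the ratio was not tested. In the same cells the 8 fibroblast markers summed to 32.8 and 89.4 CPM and the 10 endothelial markers to 85.9 and 173 CPM; their part in the Cxcl12 ratio was not tested. DCT-like cells (distal convoluted tubule) had 12 and 39 UMIs, 56.4% of the latter from 1 cell. TAL-like cells did not differ beyond counting error at 13.7 and 13.9 CPM, a ratio of 0.02 [-0.29, 0.33], nor did PT-like cells at 6.25 and 7.35 CPM, a ratio of 0.23 [-0.23, 0.71].

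The endothelial-like cells were clustered again, without the 3 genes, into 10 subclusters. Subcluster 5 held 79 cells, all of the library labelled PHDTiEC and 70 of them mREC-like. It was led by Bnip3, Pgf, Slc16a3, Adm, Ankrd37 and Egln3, genes known to respond to HIF. Cxcl12 stood at 496 CPM [458, 537] in it, and its 629 UMIs were 51.1% of all endothelial Cxcl12 UMIs of that library. These cells were set apart by genes that differ between the libraries, so neither their number nor their leading genes are a result. Leaving them out takes cells from 1 library only, and the cells of that library in the other subclusters are those that remain after this split, so the values that follow are descriptions and no measure of the difference between genotypes. Without subcluster 5 the log2 ratio of Cxcl12 was 0.92 in endothelial-like cells (70.1 and 133 CPM) and 0.31 in mREC-like cells (120.2 and 149 CPM, 214 UMIs in each library).

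The other subclusters did not all point the same way. In subcluster 2, led by Col1a2 and Higd1b and made mostly of cluster 23, Cxcl12 was 54.9 CPM in Cre- and 337 CPM in the library labelled PHDTiEC, a log2 ratio of 2.62 [2.23, 3.03]. In subcluster 4, led by the smooth muscle genes Cnn1 and Myh11, it was 41.1 and 127 CPM, a ratio of 1.62 [0.99, 2.31]. Subclusters 6, led by Gkn3 and Mgp, and 7, led by Calca and Rspo3, had ratios of 1.04 [0.39, 1.71] and 0.90 [0.33, 1.47]. Subclusters 1, 3 and 9 had ratios from -0.41 to 0.96, on 5 to 35 UMIs per library, and subcluster 0, mostly cREC-like (77 of 79 cells and 128 of 135), held 0 and 13 UMIs, 84.6% of the latter in 1 cell that was not cREC-like. Subcluster 8, led by Aqp1, Hpgd and Slc14a1, of which Aqp1 and Slc14a1 encode the water channel and urea transporter of the descending vasa recta, held less Cxcl12 in the cells that remained of the library labelled PHDTiEC. Its 23 cells of Cre- held 119 Cxcl12 UMIs (360.5 CPM [299, 431]), which is 34.6% of the endothelial Cxcl12 UMIs of that library. Its 29 cells of the library labelled PHDTiEC held 49 (159 CPM [118, 211]), a ratio of -1.18 [-1.69, -0.69]; a single cell held 21.01% of the former and 42.9% of the latter. Subcluster 8 was the endothelial group with the highest Cxcl12 level in Cre-.

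**Figure D4:**
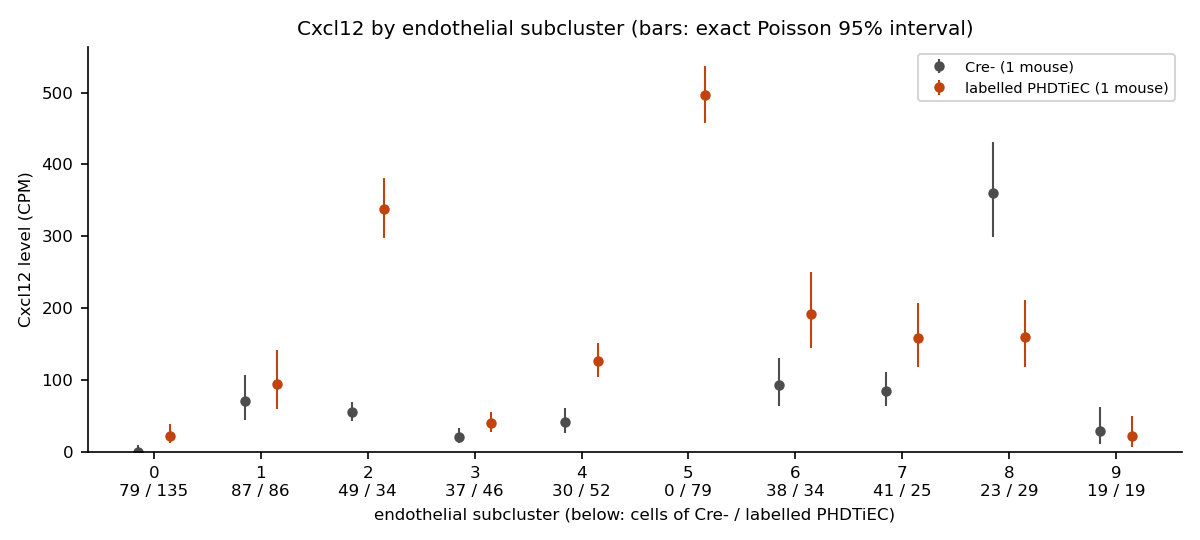
Points give the Cxcl12 level (CPM) in each endothelial subcluster of the Cre- library (grey, 1 mouse) and the library labelled PHDTiEC (orange, 1 mouse), with exact Poisson 95% intervals and the number of cells below each subcluster. Subcluster 5 has no cell of Cre- and stands at 496 CPM; in subcluster 8 the interval in Cre- lies above that of the cells of the library labelled PHDTiEC that were not drawn into subcluster 5.

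Beside Cxcl12, all 8 listed HIF targets were at least 1.5-fold higher among mREC-like cells in the library labelled PHDTiEC, with a median log2 ratio of 4.38 against 0.02 over all genes of the class. Adm, whose peptide ACKR3 can bind, stood at 3.93 and 112 CPM, a ratio of 4.83 [3.77, 6.16]. Pgf, a vascular growth factor of the VEGF family, stood at 2.81 and 94.4 CPM. Of all genes in that class 5.88% were higher by that fold. The list was chosen with earlier results of these data known. Adm, Pgf, Ankrd37 and Bnip3 on it also lead subcluster 5, so its count and median are descriptions only. In fibroblast-like cells 0 of the 4 measured HIF targets were higher and 1 was lower, Ndufa4l2 at -0.91 [-1.22, -0.59], where 8.16% of genes were higher and 3.0% lower. In cREC-like, DCT-like and injured PT-like cells the HIF targets could be set beside low Cxcl12 levels only. In cREC-like cells 6 of 7 HIF targets were higher and 1 lower, beside 8.57% and 7.34% of all genes, while the Cxcl12 ratio was unresolved. In DCT-like cells 0 of 5 were higher, beside 5.27% of all genes, and in injured PT-like cells 1 of 7, beside 5.75%. Cxcl12 was past the fold in both, but 1 cell held 56.4% of its DCT-like UMIs in the library labelled PHDTiEC. The injured PT-like levels, 2.17 and 9.85 CPM, did not exceed free RNA (8.91 and 9.86 CPM), and the leak into that class was not estimated. In cluster 23, where the Cxcl12 ratio was 1.71, 5 of 7 were higher and 0 lower, beside 5.14% and 5.12% of all genes. In other classes the Cxcl12 interval spanned 0. There 2 of 5 were higher in glomerular epithelial-like, 0 of 5 in TAL-like, 0 of 6 in PT-like and 1 of 1 in urothelial-like cells. Over the named classes 3.26% to 11.9% of all genes were higher. A link between HIF targets and Cxcl12 was not tested.

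Cxcr4 differed less between the libraries than its ligand. It was at least 1.5-fold higher in 1 and lower in 0 of the 15 named classes with at least 50 UMIs. Over the 18 named classes, 3.26% to 11.9% of all genes were higher by that fold and 2.05% to 9.76% lower. In neutrophil-like cells, its richest class, the log2 ratio was 0.00 [-0.18, 0.18] on 497 and 548 UMIs. Macrophage-like cells held 857 and 1299 UMIs, a ratio of 0.44 [0.31, 0.56], under the 1.5-fold limit that 3.26% of 9905 genes passed upward. The ratio was 0.26 [0.11, 0.40] in cluster 1 and 0.38 [0.20, 0.56] in cluster 11, and 0.36 with the 3 clusters together. Neutrophil markers summed to 66.0 and 107 CPM in macrophage-like cells, against 74872 and 79659 CPM in neutrophil-like cells.

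T-like cells had a Cxcr4 ratio of 0.23 [0.02, 0.44]. Dendritic-like cells held 44 and 108 UMIs, a ratio of 0.98 [0.46, 1.52], and were the class past the fold; 6.76% of 6644 genes were higher by that fold there. The macrophage markers in them summed to 932 and 1144 CPM, and after thinning 3.66% and 5.83% of the cells had a Cxcr4 UMI. Monocyte-like cells went the other way, with 358 and 193 UMIs in 239 and 159 cells and a ratio of -0.39 [-0.65, -0.14]. In endothelial-like cells the ratio was -0.39 [-0.73, -0.05], which became 0.28 without barcodes that held markers of another lineage (30 and 57 UMIs left). In mREC-like cells the macrophage markers summed to 507 and 359.7 CPM and the neutrophil markers to 170.2 and 64.2 CPM, and their part in the ratio was not tested. Cluster 23 had 48 and 20 UMIs, a ratio of -1.21 [-2.04, -0.43], and cREC-like cells 71 and 82 UMIs, a ratio of -0.01 [-0.49, 0.47]. Leak was estimated at 55.6% of the cREC-like UMIs in Cre- and 16.5% in the other library, and its part in that ratio was not tested.

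For Ackr3, 2 of the 6 named classes with at least 50 UMIs were at least 1.5-fold higher and none lower. DCT-like cells held 35 UMIs in Cre- and 118 in the library labelled PHDTiEC (4.43 and 13.3 CPM), a log2 ratio of 1.58 [1.03, 2.17], where 5.27% of 11166 genes were higher by that fold. The richest cell held 17.1% and 4.24% of them. Both levels lay below that of free RNA, and the leak into this class was not estimated. The TAL markers summed to 2347 and 1049.9 CPM and the 10 endothelial markers to 31.8 and 71.5 CPM in these cells, and their part in the ratio was not tested. TAL-like cells, with 29 and 53 UMIs, had a ratio of 0.73 [0.05, 1.44], where 3.89% of 12067 genes were higher by that fold. In the classes with the highest Ackr3 levels the ratios were smaller: 0.37 [0.17, 0.57] in injured PT-like, 0.34 [0.08, 0.60] in CD-like, 0.14 [-0.06, 0.35] in PT-like and 0.04 [-0.29, 0.38] in glomerular epithelial-like cells.

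In endothelial-like cells the Ackr3 ratio was 0.54 [0.07, 1.02] on 61 and 105 UMIs. Cluster 23 alone gave 1.198 [0.48, 1.96], on 24 and 53 UMIs, and without it the endothelial ratio was 0.065. Fibroblast-like cells held 15 and 29 UMIs, a ratio of -0.17 [-1.11, 0.84]. Pericyte-like cells held 1 and 7 UMIs (1.21 and 6.87 CPM), beside an estimated leak of 6.29 and 7.004 CPM.

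Other genes of the axis were taken as a list of 34 that covers other ligands, proteases that cut CXCL12, receptor kinases, arrestins, signal transduction and upstream factors. In endothelial-like cells 29 had at least 50 UMIs; 2 were at least 1.5-fold higher and 0 lower, near the 3.53% and 4.36% over all genes, and the median log2 ratio was 0.02. The 2 were Mif, a further ligand of CXCR4, at 178 and 508 CPM with a ratio of 1.51 [1.40, 1.62], and Adm at 8.77 and 92.1 CPM with a ratio of 3.39 [2.94, 3.88]. In cREC-like cells 6 of 23 were higher and 0 lower, beside 8.57% and 7.34% of all genes. They were Mif, Adm, Hif1a, the protease gene Mmp14, the G protein regulator Rgs1 and Rac2, a leukocyte GTPase. Rgs1 stood at 18.8 and 93.5 CPM there and Hif1a at 63.8 and 131 CPM. Beside these ratios, the macrophage markers stood at the sums given above, the 5 TAL markers summed to 1401 and 249.95 CPM, and the estimated leak of free RNA was 55.6% of the cREC-like UMIs in Cre- and 16.5% in the other library. Their part in these ratios was not tested.

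Among the receiving cells few genes of the list passed the fold. In macrophage-like cells it was 1 of 27, Pik3r5, an adaptor of the kinase PI3Kγ, at 26.7 and 40.9 CPM, near the 3.26% of all genes. In neutrophil-like cells it was 1 of 23, Itch, the ligase that directs CXCR4 to degradation, at 92.3 and 162 CPM, where 4.88% of genes were higher by that fold. In monocyte-like cells 1 of 26 was higher, Arnt, and 3 were lower: the receptor kinase gene Grk3 with a ratio of -0.63 [-0.90, -0.36], Elmo1 and Mmp14, where 4.5% of genes were higher and 6.6% lower. Elane and Ctsg, neutrophil proteases that can cut CXCL12, had 0 UMIs each in the neutrophil-like cells of both libraries. A floor of 3 counts would be 2.45 and 2.22 CPM there. Protein of these genes was not measured.

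Across the 18 named classes of both libraries, 36 points, the genes whose log2(CPM + 1) ran most like that of Cxcl12 among 14635 genes were Ltbp4, Fbln2, Gata6, Fbln5 and A930004D18Rik, with Pearson r from 0.867 to 0.887. Ltbp4, Fbln2 and Fbln5 encode proteins of elastic fibres and the extracellular matrix. The genes most like Cxcr4 were Gmfg, Ncf4, Ptprc, Prkcb and Hcls1, with r from 0.909 to 0.917; Ptprc encodes the leukocyte antigen CD45. Those most like Ackr3 were Vangl1, Dcaf12l1, Wasl, Hmgb3 and Zfp462, with r from 0.827 to 0.849. The points share libraries and classes, and r is a description here.

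**Figure D5:**
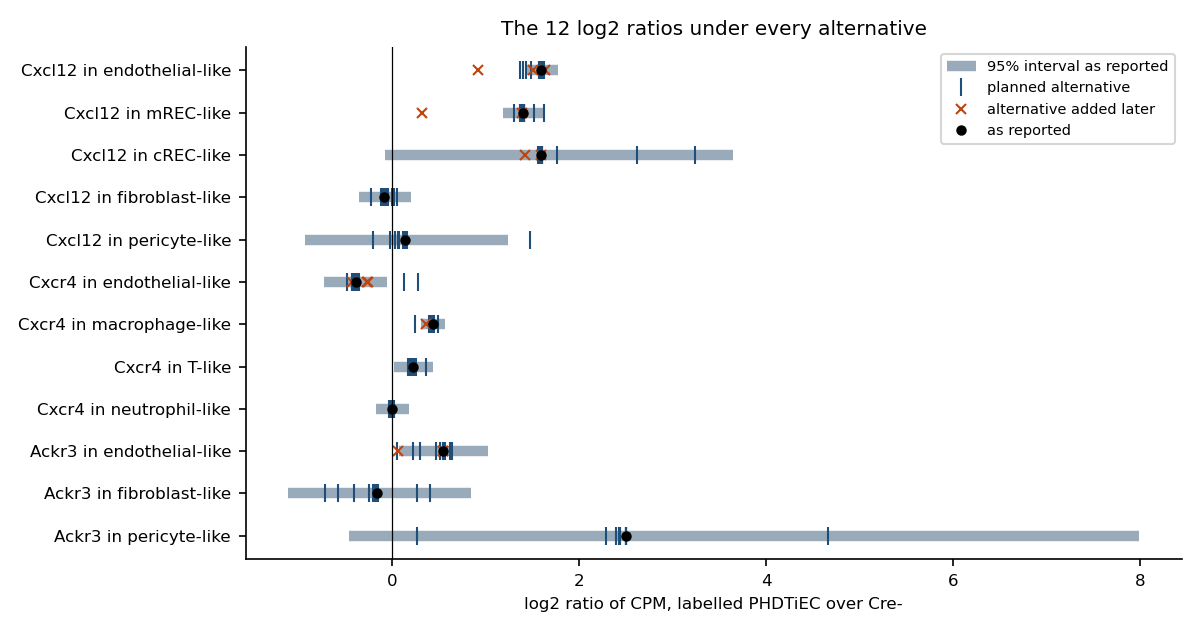
For the 12 log2 ratios of CPM (library labelled PHDTiEC over Cre-, 1 mouse each), black points are the values as reported, thick bars their 95% intervals, blue ticks other settings of the processing and orange crosses those added after the data were seen. The Cxcl12 ratio in cREC-like cells ranged up to 3.24 with cells taken by marker UMIs alone, and Cxcr4 in neutrophil-like cells stayed between -0.03 and 0.02; the lowest crosses of Cxcl12 leave out subcluster 5, which has cells of 1 library only.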

How the data were processed

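The authors prepared cells of the injured kidneys with a tissue dissociation kit, made 10x Chromium 3′ libraries, aligned the reads to mm10 with Cell Ranger (4 in the file header) and deposited raw UMI counts per gene and barcode, with no cell filter or normalization. UMIs were summed per class and library and given as CPM. Cells were clustered in Seurat 5.3.0 (R 4.3.3: counts per 10000, 2000 variable genes, 20 principal components, resolution 0.8; subclusters 0.4), with the 3 genes left out. Clusters were named from marker lists with the clusters in view. No doublet caller was run; barcodes with markers of another lineage were removed as an alternative. Intervals are exact Poisson for a level and exact binomial (Clopper-Pearson) for shares and ratios. The ratio interval was tried on simulated independent counts only, which cannot show how well it covers UMIs clustered within cells. A gene is past the fold at 1.5 with at least 50 UMIs in the class. Named genes were the 3 members, the listed axis genes, HIF targets and floxed genes, and the 5 genes most like each member with at least 200 UMIs. Cxcl11 was not analysed here. The members and lists were chosen with earlier results of these data known. Python 3.11.15, scipy 1.17.1 and edgeR 4.0.16 (TMM factors) were used.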

Additional observations from a re-analysis of the deposited data

Results flagged for a closer look

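Cxcr4 was lower in the monocyte-like cells of the library labelled PHDTiEC, with a log2 ratio of -0.39 [-0.65, -0.14] and levels of 268 and 204 CPM. It was higher in 3 other named classes: macrophage-like cells at 0.44, T-like cells at 0.23 and dendritic-like cells at 0.98. The opposite directions drew attention; with 1 mouse per genotype the difference between these classes was not tested. After thinning to 2000 UMIs, 38.4% and 26.8% of monocyte-like cells had a Cxcr4 UMI. In those cells the 8 macrophage markers summed to 2193 and 1792 CPM and the 7 neutrophil markers to 5188 and 4723 CPM, and their part in the ratio was not tested.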

How the results depend on the processing

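The 12 ratios were recomputed under up to 13 other settings of the processing, and 4 more were added after the data were seen. Of 164 values, 154 stayed within the 95% interval as reported, 10 moved out of it, and none of the ratios past 1.5-fold changed sign. Without barcodes that held 2 or more markers of another lineage, the log2 ratio in endothelial-like cells was 1.37 for Cxcl12, 0.28 for Cxcr4 and 0.049 for Ackr3. With cells taken by marker UMIs alone it was 1.40 for Cxcl12 in endothelial-like cells, 1.48 for Cxcl12 in pericyte-like cells and 0.25 for Cxcr4 in macrophage-like cells. The mean over cells of counts per 10000 gave 0.13 for Cxcr4 in endothelial-like cells. Of the added alternatives, leaving out subcluster 5, which has cells of 1 library only, gave 0.92 for Cxcl12 in endothelial-like and 0.31 in mREC-like cells, and leaving out cluster 23 gave 0.065 for Ackr3 in endothelial-like cells. The cause of the other moves was not tested. Values that stayed in a wide interval still varied: Cxcl12 in cREC-like cells was 3.24 with cells taken by marker UMIs alone and 2.62 as the mean over cells. For Cxcl12 in cREC-like and Ackr3 in pericyte-like cells 10 of the 13 settings gave a ratio; the others left 0 UMIs in a library, put the estimated leak at or above the level or, at resolution 0.4 for cREC-like cells, formed no separate class. No paired analysis was possible because each genotype has 1 library, and for the same reason no replicate could be left out. As reported, the ratios of Cxcl12 in cREC-like and pericyte-like cells and of Ackr3 in stroma rest on fewer than 50 UMIs.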
